A study of Mus musculus with 2 samples.

Results

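The cholesterol and fatty acid synthesis genes described here are 34 genes of the mevalonate and sterol steps, of the SREBP system that regulates them, and of fatty acid synthesis, elongation and desaturation, out of 22911 genes that could be named on the arrays. They were chosen by their known roles and found on the arrays through the RefSeq accession of each probe. A probe was assigned to 33 of them, 55 probes in all, and 32 were measured on both arrays, meaning that at least 1 probe of the gene was well above background on each. Acat2, an acetoacetyl-CoA thiolase, had no probe assigned through its accession, and Scd1, a stearoyl-CoA desaturase, was well above background on array 2 only.

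The RNA came from mouse regulatory T cells (Tregs) sorted from kidney as CD45+CD3e+CD4+FoxP3-hCD2+ cells, where human CD2 reports expression of Foxp3. The cells were taken 28 days after induction of cGN, a glomerulonephritis model set off with anti-GBM antibody, which binds the basement membrane of the glomerulus, and whose severity depends on the antibody lot. Both groups share this treatment and day and differ in the lot of the antibody, I or M. Each lot has 1 single-colour array, no untreated group is part of the comparison, and neither the age of the mice nor the number pooled for an array is stated in the sources used here. With 1 array per lot there is no replicate check and no test, so every difference below describes 2 arrays.

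The 2 kinds of deposited data contradict each other on the lots. The scanner output recorded under the lot I sample is array 1, and that recorded under the lot M sample is array 2. The deposited value table has this the other way round, with the signals of array 1 in the lot M column and the signals of array 2 in that of lot I. Numbers are used for the arrays for this reason. Each log2 difference subtracts array 1 from array 2. It reads as lot M against lot I if the scanner output is recorded rightly, and as lot I against lot M if the table is. Levels are in log2 units relative to the 75th percentile of all probes on the same array, which is 0. Levels of different genes come from different probes and are not compared. The ± value beside a difference is the spot error, taken from the error model of the scanner software. For bright probes it was nearly constant, at 0.204 for Hmgcs1 and for Fasn, so there it is mostly a fixed share of the signal. The errors of several probes of a gene were combined as if independent, so it falls with their number, to 0.144 for Pmvk with 2 probes. It does not include how far mice, sorts or lots vary.

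Transcripts of the sorted cell type were present. Foxp3 was at 4.92 (array 1) and 4.74 (array 2), Cd3e of 5.47 and 5.58, and Cd4 of 3.21 and 3.20. Of 12 Treg and T cell markers 11 were measured, with a median difference of -0.01 and a summed signal of 948 times the 75th percentile on each array, while Trac had no named probe. All 16 proximal tubule markers were measured too, with a summed signal of 94.99 on array 1 and 195 on array 2, a median difference of 1.12 and 15 of the 16 higher on array 2. Lrp2, the endocytic receptor megalin, was at 0.47 and 1.66, and Slc34a1, a phosphate transporter, at 1.42 and 2.62. All 12 macrophage and monocyte markers were measured, summing to 26.2 and 30.4 (median difference 0.28), with Adgre1, which encodes F4/80, at 1.045 and 1.503. In such bulk RNA, a change in the number of cells of a type and a change in RNA per cell cannot be told apart.

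Cells build cholesterol from acetyl-CoA through mevalonate, isoprenoid diphosphates, squalene and lanosterol. The transcription factors SREBP1 and SREBP2 switch on the genes of these steps and of fatty acid synthesis when sterols run low. SCAP carries the SREBP precursors to the Golgi for activation, and the INSIG proteins hold SCAP back in the endoplasmic reticulum when sterols are plentiful. In T cells this pathway supplies membrane and isoprenoids for growth and protein prenylation, and Tregs are known to draw on mevalonate metabolism for their suppressive function.

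SREBPs bind sterol regulatory elements near gene starts together with the factors NF-Y, which binds CCAAT boxes, and Sp1, which binds GC boxes. RefSeq promoter windows (GRCm38.p6, 250 bases before to 50 after a start) were matched by symbol for 27 of the 34 genes, in 35 windows, and searched on both strands. Fdps, Fdft1, Sqle, Stard4, Scd1, Scd2 and Fads1 were not matched and not searched. Upstream stretches of 250 bases are shown for 3 genes whose array values follow: Hmgcs1, the only one of the 27 matched genes with a window that held TCACNCCAC, the core letters of a sterol regulatory element, and the feedback regulators Insig1 and Insig2. Capitals mark TCACNCCAC, the CCAAT box on either strand and the E-box letters CACGTG.
Hmgcs1, chr13:119690101-119690350, + strand: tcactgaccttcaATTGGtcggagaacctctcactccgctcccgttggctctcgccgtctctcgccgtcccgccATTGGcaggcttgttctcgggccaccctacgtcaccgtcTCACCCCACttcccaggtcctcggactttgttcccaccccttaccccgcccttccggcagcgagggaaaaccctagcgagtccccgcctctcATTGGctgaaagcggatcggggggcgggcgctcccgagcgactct
Insig1, chr5:28071162-28071411, + strand: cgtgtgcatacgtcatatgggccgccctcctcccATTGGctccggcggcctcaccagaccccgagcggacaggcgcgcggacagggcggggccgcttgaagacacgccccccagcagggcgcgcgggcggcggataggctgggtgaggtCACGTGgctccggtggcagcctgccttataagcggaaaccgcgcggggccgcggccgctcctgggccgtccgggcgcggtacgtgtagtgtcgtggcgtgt
Insig2, chr1:121332590-121332839, - strand: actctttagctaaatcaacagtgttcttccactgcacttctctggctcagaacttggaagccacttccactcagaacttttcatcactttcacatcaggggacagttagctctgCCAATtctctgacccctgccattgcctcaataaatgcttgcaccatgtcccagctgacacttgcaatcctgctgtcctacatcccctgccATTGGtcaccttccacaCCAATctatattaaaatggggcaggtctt

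In the Hmgcs1 stretch the sterol element letters began 137 bases upstream of the start, between CCAAT boxes that began 176 and 45 bases upstream. The Insig1 stretch held 1 CCAAT box and 1 E-box, and the Insig2 stretch, the first of 3 windows of that gene, held 3 CCAAT boxes, while its other windows held none. The CCAAT letters were present in 22 of the 35 windows (62.9%) against 37.4% of all 32851 windows of the same length. Counted by gene, 21 of the 27 matched genes had the letters in at least 1 window (77.8%), against 42.4% of 10935 other genes measured on both arrays. All matched genes of the mevalonate and sterol steps apart from Acat2 were among the 21, and Scap, Acaca, Elovl6, Fads2 and Lpin1 were not. The GC box letters GGGCGG were found for 22 of the 27 (81.5%), against 64.5% of the other measured genes, and CACGTG for 5 (18.5%), against 11.3%. TCACNCCAC was present in 1.24% of all windows. These are matches of letters, and the arrays do not measure binding. The median difference was -0.06 over the 21 genes with CCAAT letters and -0.09 over the 5 measured genes without them.

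Across the set the arrays differed little, and the small differences leaned to lower levels on array 2. Of the 32 measured genes 22 were lower on array 2, against 46.2% of all 13743 measured genes, and 10 were higher. Their median difference was -0.06, against 0.01 for all measured genes, and their quartiles were -0.14 and 0.02. The median stayed between -0.12 and -0.06 under every alternative that keeps the recorded assignment of the scanner output. The value table holds the same signals, so its lot M column minus its lot I column gave 0.06, which is array 1 minus array 2. Scaling by the spike-in controls moved the whole distribution down, so that 25 of the 32 genes and 61.9% of all genes were lower on array 2. Few single genes exceeded their own spot error. Lower by more than that error were 4 genes (12.5%, against 11.4% of all genes), and higher were 2 (6.25%, against 17.1%), so the shares of single genes past the error were near or under those of all genes. Of these 6 genes, Hsd17b7 and Scd2 stayed past the error under all 14 alternatives run on them. Not all of the 14 could change their values. Leaving out Fads2 could not, nor could the brightest probe for Scd2, which has 1 probe. Some other genes passed their error under an alternative only, such as Idi1 and Insig1 with spike-in scaling. A single gene, Fads2, was 1.5-fold or more apart, where 5.97% of all genes were, and it was also the only gene past 2-fold, where 1.43% of all genes were. Over all genes, 1.34% were 2-fold or more higher on array 2, as Fads2 was, and 0.0873% were 2-fold or more lower, as no gene of the set was.

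**Figure D1:**
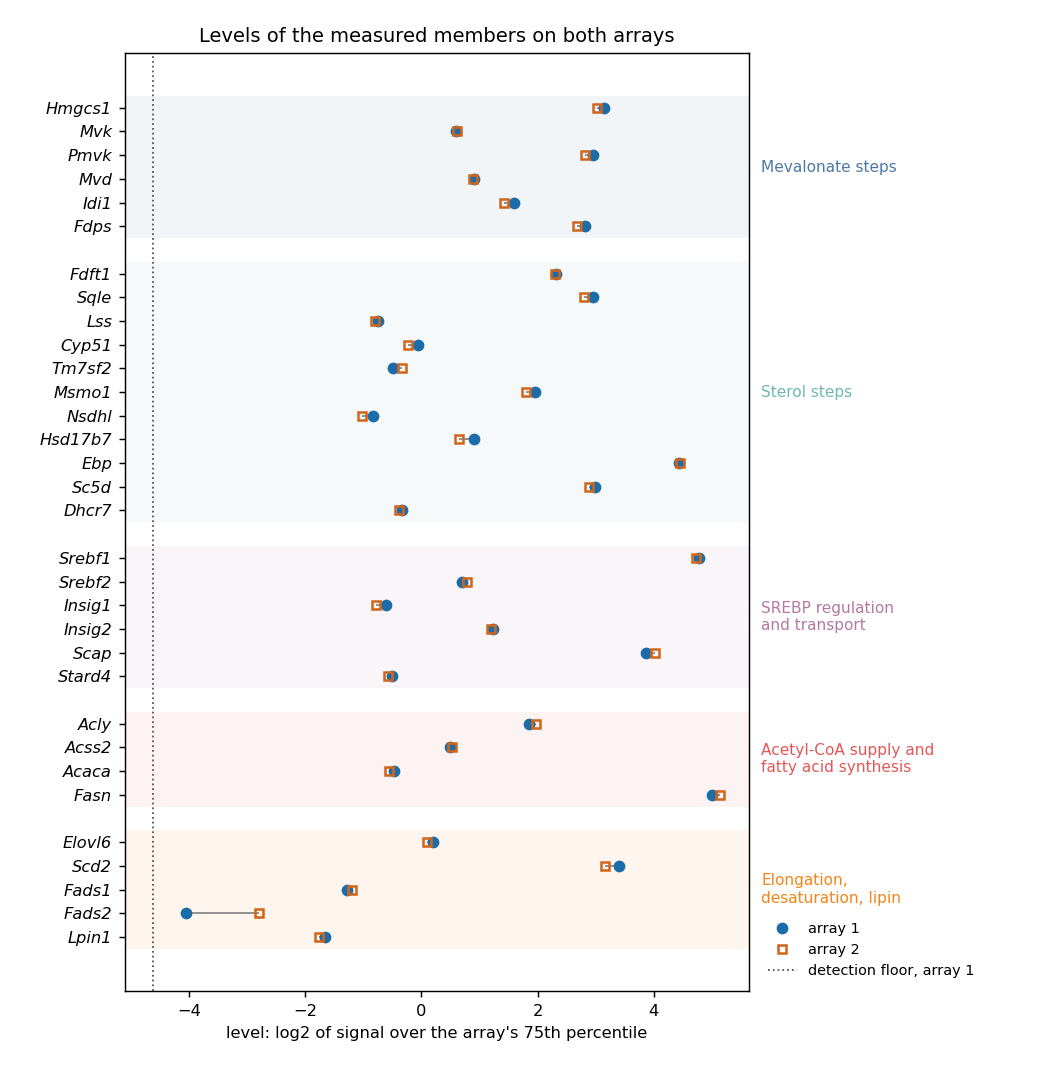
Levels of the 32 measured genes on array 1 (filled circles) and array 2 (open squares), in log2 units relative to the 75th percentile, grouped by role, with the detection floor of array 1 at -4.62 as a dotted line. The symbols nearly coincide for each gene except Fads2, at -4.05 and -2.80, and levels of different genes rest on different probes and are not comparable.

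The enzymes that turn acetyl-CoA into farnesyl diphosphate had a median difference of -0.13 (-0.19 to -0.10 among the alternatives), with 5 of 6 measured genes lower on array 2. Hmgcs1, which makes HMG-CoA, was at 3.15 on array 1 and 3.02 on array 2, a difference of -0.13 ± 0.20. Pmvk, the phosphomevalonate kinase, was at 2.95 and 2.81 (-0.13 ± 0.14). These 2 differences lay within their spot errors. Idi1, which interconverts the isoprenoid building blocks, was at 1.59 and 1.43 (-0.16 ± 0.20). Fdps, which makes farnesyl diphosphate, was at 2.82 and 2.68 (-0.14 ± 0.20). Mvd, the decarboxylase, was at 0.91 and 0.90, and its difference of -0.02 ± 0.20 turned positive with lowess centring. Mvk, the mevalonate kinase, was the exception at 0.59 and 0.61, and its difference of 0.02 ± 0.15 turned negative with normexp, spike-in scaling and no scaling. All 6 differences were within 1.12-fold, and none exceeded its error as given. With spike-in scaling, which moved all genes down, Pmvk and Idi1 did exceed theirs, Idi1 at -0.21.

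All 11 genes of the steps from farnesyl diphosphate through squalene to cholesterol were measured, and 9 were lower on array 2, with a median of -0.11. That median was -0.06 with normexp and -0.16 with spike-in scaling. The lowest difference of the whole set belonged to Hsd17b7, a ketosteroid reductase that acts with Msmo1 and Nsdhl to remove methyl groups from the sterol ring. Hsd17b7 was at 0.90 on array 1 and 0.65 on array 2, a difference of -0.26 ± 0.14 (1.19-fold), with both of its probes lower (-0.30 and -0.22). Msmo1, the oxidase of that complex, was at 1.96 and 1.80 (-0.16 ± 0.14), also with both probes lower (-0.12 and -0.19). Nsdhl, its dehydrogenase, was at -0.84 and -1.01 (-0.17 ± 0.21). All 3 enzymes of the demethylating complex were lower on array 2, as were 46.2% of all measured genes, and Nsdhl lay within its spot error. Hsd17b7 exceeded its spot error under every alternative run, some of which could not change its value. Msmo1 did not exceed its error with lowess centring (-0.144, with an error of 0.144) or its brightest probe (-0.12).

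Cyp51, the lanosterol demethylase, was at -0.06 on array 1 and -0.22 on array 2 (-0.17 ± 0.15), but its probes disagreed in size. One probe gave -0.33 and the other, at 1.57 and 1.56, gave -0.01, so the brightest probe showed next to no difference. The Cyp51 difference also fell within its error with normexp (-0.06) and lowess centring (-0.14). Sqle, the squalene epoxidase that is often taken as rate-limiting for the later steps, was at 2.95 and 2.80 (-0.15 ± 0.20). Sc5d, a sterol desaturase, was at 2.99 and 2.88 (-0.11 ± 0.20). Of the remaining enzymes, all but Tm7sf2 were closer still. Lss, which closes the ring to lanosterol, was at -0.74 and -0.80 (-0.06 ± 0.12), and Dhcr7, which makes cholesterol from its immediate precursor, at -0.33 and -0.39 (-0.06 ± 0.21). Fdft1, the squalene synthase, was at 2.31 and 2.30 (-0.02 ± 0.14). Ebp, a sterol isomerase, was at 4.43 and 4.45, and its difference of 0.02 ± 0.14 turned negative with spike-in scaling and no scaling. Tm7sf2, a sterol reductase, was higher on array 2, at -0.48 and -0.33 (0.15 ± 0.15), with both probes higher (0.10 and 0.20), but was within its error under 6 of 13 alternatives, at 0.10 with spike-in scaling.

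**Figure D2:**
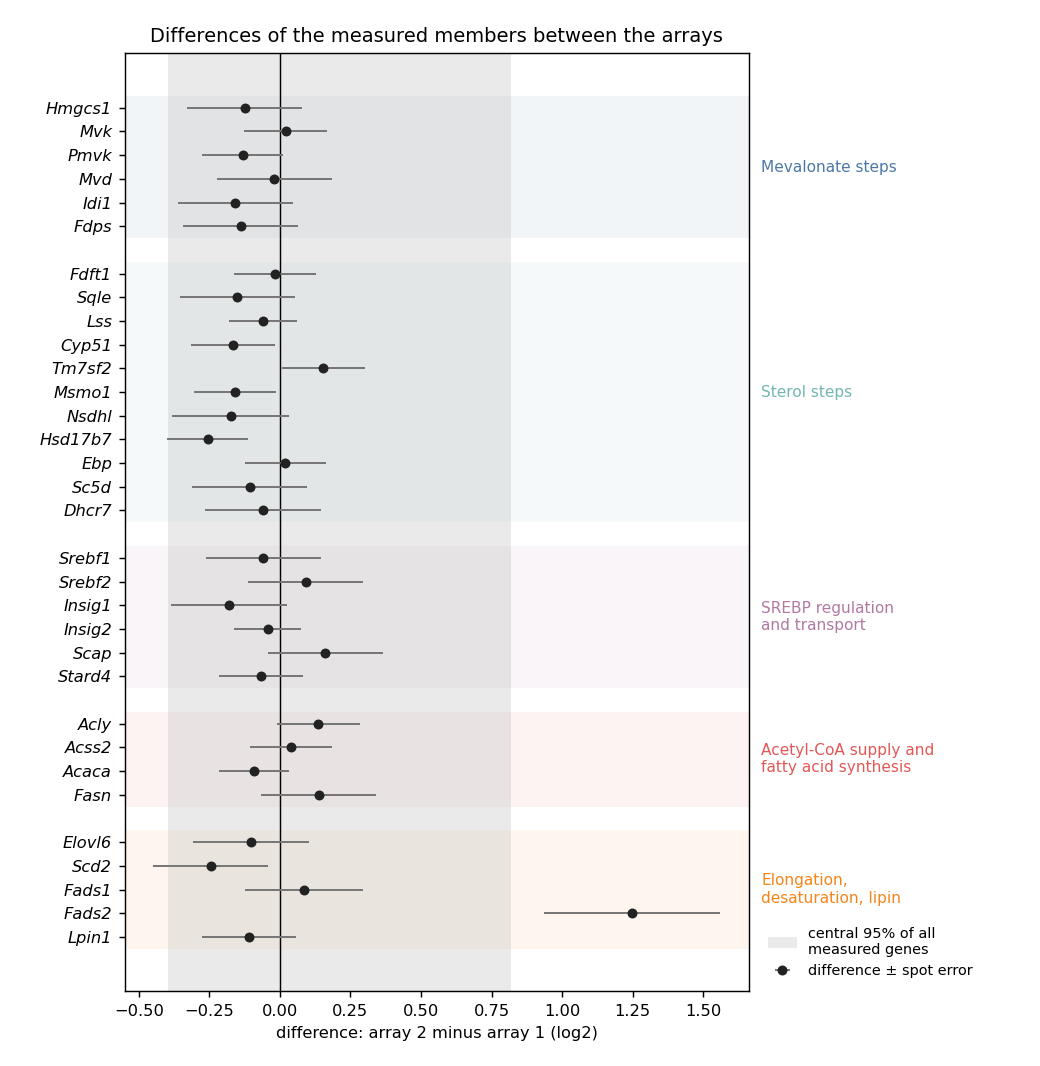
Difference of each measured gene between the arrays, array 2 minus array 1 on the log2 scale, with the spot error as bars and the central 95% of all 13743 measured genes (-0.40 to 0.82) shaded. Of the 32 genes, 31 lie inside the shaded range and Fads2 lies outside it at 1.25.

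Genes of the SREBP system were near equal on the arrays, with a median difference of -0.05 over 6 genes, 4 lower and 2 higher. Srebf1, which encodes SREBP1, was at 4.78 on array 1 and 4.72 on array 2 (-0.06 ± 0.20). Srebf2, which encodes SREBP2, was at 0.70 and 0.79 (0.09 ± 0.20). Scap, the escort of both, was at 3.87 and 4.03 (0.16 ± 0.20). The differences of these 3 genes lay within their spot errors. Insig1, itself a target of SREBP, had the lowest difference of the group at -0.60 and -0.78 (-0.18 ± 0.21). It passed its error of 0.207 with spike-in scaling (-0.236) and no scaling (-0.211). Insig2, which is regulated apart from Insig1, was at 1.24 and 1.19 (-0.04 ± 0.12), with 3 probes that gave -0.07, -0.10 and 0.04. Stard4, which carries cholesterol between membranes, was at -0.50 and -0.57 (-0.07 ± 0.15). The median of this group became 0.02 over its 4 genes above the 75th percentile on both arrays, because Insig1 and Stard4 drop out there.

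The genes that supply acetyl-CoA and build palmitate were the only role group with a positive median, 0.09 over 4 genes, and it was 0.03 with spike-in scaling. Acly, which makes acetyl-CoA from citrate, was at 1.85 on array 1 and 1.98 on array 2 (0.14 ± 0.15), with both probes higher (0.13 and 0.14). Fasn, the fatty acid synthase, was at 5.01 and 5.15 (0.14 ± 0.20). Acss2, which makes acetyl-CoA from acetate, was at 0.49 and 0.53, and its difference of 0.04 ± 0.15 turned negative with spike-in scaling. Acaca, the acetyl-CoA carboxylase of lipogenesis, was at -0.46 and -0.56 (-0.09 ± 0.12), with 3 measured probes that gave -0.20, 0.06 and -0.14. The sign of Acaca was positive with its brightest probe and with normexp. Its remaining probe was dim and well above background on array 1 only. When that probe was averaged in, Acaca differed by -0.21, past its error. None of these 4 differences as first given exceeded its error, and their offset from the mevalonate and sterol genes was not tested.

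Desaturases held both the most negative difference among the fatty acid genes and the only large one. Scd2, a stearoyl-CoA desaturase, was at 3.41 on array 1 and 3.17 on array 2 (-0.25 ± 0.20, 1.19-fold), from 1 probe. Its paralogue Scd1 was at -4.61 on array 1, where it was not well above background, and at -4.24 on array 2, or 1.29-fold higher. That difference of 0.37 was smaller than its spot error of 0.47. Scd1 was thus dim on both arrays while Scd2 was measured on both. The Scd genes are close in sequence, and whether their probes tell them apart was not tested. Elovl6, which lengthens palmitate, was at 0.19 and 0.09 (-0.10 ± 0.20).

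Fads2, the desaturase that opens the synthesis of long polyunsaturated fatty acids, was at -4.05 on array 1 and -2.80 on array 2, a difference of 1.25 ± 0.31 (2.38-fold). It lay close to the detection floor of array 1 (-4.62), and neither array had its second probe well above background (-5.67 and -6.50). The difference was 0.38 with normexp, and 0.21 when the second probe was averaged in, and the call of 2-fold was then lost. Fads2 was higher on array 2 as were the proximal tubule markers, and their part in this difference was not tested. Fads1, the next desaturase of that route, was at -1.29 and -1.20 (0.09 ± 0.21) and turned to -0.17 when its second, dimmer probe was averaged in. Lpin1, a phosphatidate phosphatase that also acts on SREBP, was at -1.66 and -1.76 (-0.11 ± 0.17). Its 3 probes disagreed, at 0.05, 0.07 and -0.44, and the last of these, the brightest, differed by more than its spot error of 0.21. The probe at 0.07 lay near the detection floor, at -4.32 and -4.25, with a spot error of 0.41. With the stricter filter on dim probes Lpin1 differed by -0.20, past its error of 0.17.

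**Figure D3:**
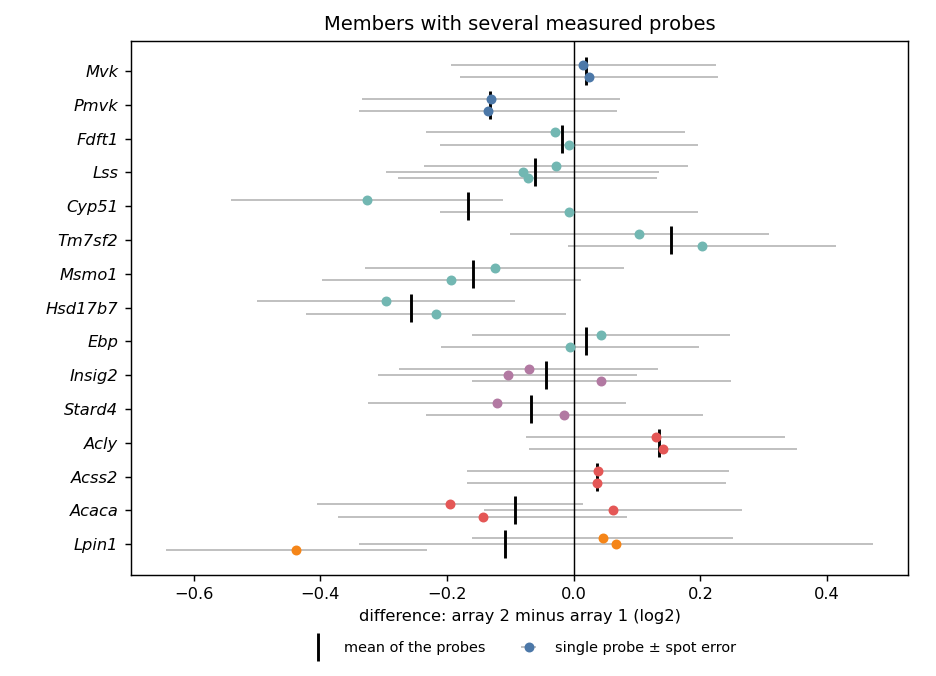
Differences of single probes, array 2 minus array 1 on the log2 scale, with their spot errors, for the 15 genes with several measured probes, and black marks at the mean of the probes. The probes of 11 genes lie on one side of 0, and those of Ebp, Insig2, Acaca and Lpin1 lie on both.

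Several probes of a gene did not always share a direction. Among the 15 genes with several measured probes, all probes had the same sign in 11, of which 7 were lower and 4 higher on array 2. Over all 5125 genes with several measured probes the share of one sign was 61.0%, with 30.6% lower and 30.5% higher. The 7 were Pmvk, Fdft1, Lss, Cyp51, Msmo1, Hsd17b7 and Stard4, and the 4 were Mvk, Tm7sf2, Acly and Acss2, of which Mvk and Acss2 turned with the scaling as given above. The other 17 measured genes, Fads2 and Scd2 among them, rest on 1 measured probe. Probes of a gene share the array and its RNA and are not replicates of a lot.

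Neighbouring parts of lipid metabolism were described with lists of other genes. The isoprenoid branches that leave the pathway at farnesyl diphosphate were measured for 12 of 12 genes, with 5 lower, 7 higher and a median of 0.04, which turned to -0.01 with spike-in scaling and to -0.04 over its 7 genes above the 75th percentile. The prenyl diphosphate synthase subunit Pdss2 was at -2.15 and -1.84 (0.30 ± 0.16), and the prenylcysteine methyltransferase gene Icmt at -1.06 and -0.85 (0.21 ± 0.16). Fntb differed by 0.23 ± 0.26 and Nus1 by 0.13 ± 0.20. Partners of SREBP processing and turnover, 12 of 12 measured, had a median of -0.03, with 7 lower. It was -0.09 with spike-in scaling, with 8 lower, and 0.04 over its 9 genes above the 75th percentile. In that list Erlin1, an endoplasmic reticulum protein that restrains SREBP, was at 0.58 on array 1 and higher by 0.43 ± 0.20 on array 2, and the coat protein gene Sec23a was at -1.31 and -1.56 (-0.25 ± 0.21). Fbxw7, a ubiquitin ligase subunit that targets active SREBP, differed by -0.19 ± 0.14, and Erlin2 by -0.17 ± 0.21. No gene of either list was 2-fold apart.

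Genes that remove or esterify cholesterol were measured for 11 of 12, with 6 lower and 5 higher and a median of -0.02 (-0.08 to 0.02 among the alternatives). Nr1h3, which encodes the sterol sensor LXR alpha, was at -1.89 on array 1 and -1.53 on array 2 (0.36 ± 0.15), the largest difference there. Osbp differed by 0.20 ± 0.15, the efflux transporter gene Abca1 by 0.18 ± 0.21, and Ch25h, a cholesterol hydroxylase, by -0.17 ± 0.22. Further genes of fatty acid and glyceride synthesis were measured for 19 of 20, with 12 higher and 7 lower and a median of 0.06. That median was 0.0022 with spike-in scaling and turned to -0.009 over the 13 genes above the 75th percentile, 7 of them lower. The highest were Me1, the malic enzyme that supplies NADPH, at -1.10 and -0.22 (0.88 ± 0.15), and Acacb, the carboxylase that restrains fatty acid oxidation, at -2.23 and -1.504 (0.73 ± 0.18). Mlxip (0.58 ± 0.15) and the elongase gene Elovl7 (0.52 ± 0.21) followed, and none reached 2-fold. These 4 genes and Nr1h3 were higher on array 2, as were the proximal tubule and macrophage markers, whose part in them was not tested.

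**Figure D4:**
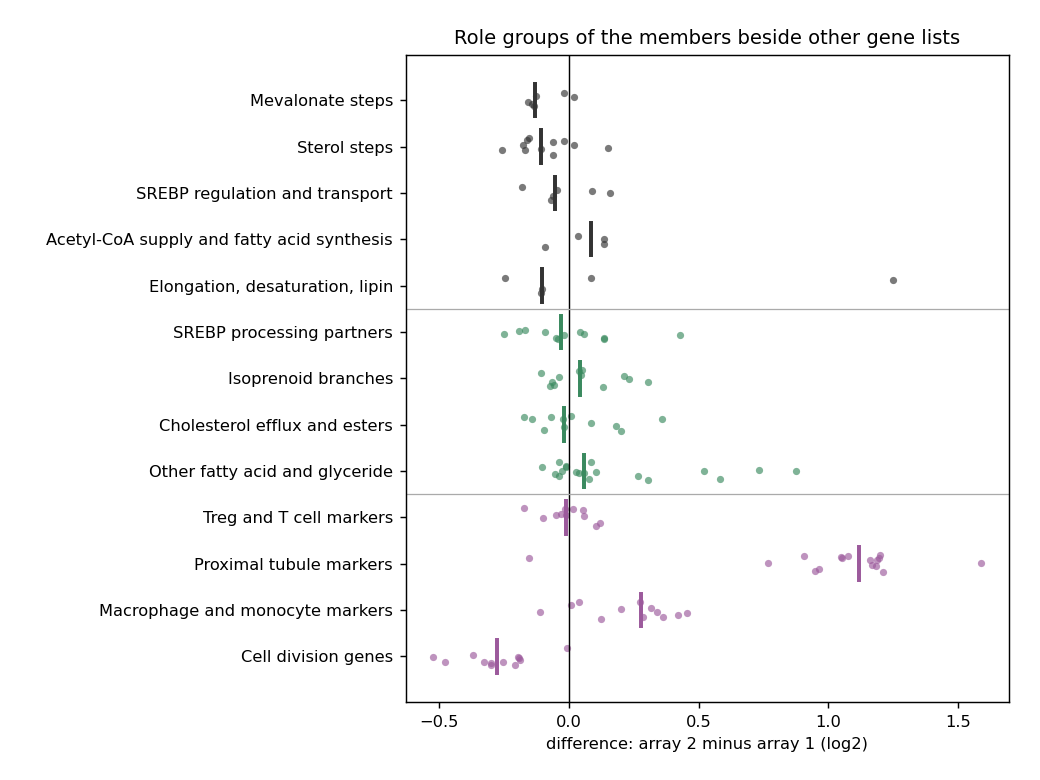
Differences between the arrays, array 2 minus array 1 on the log2 scale, with a point per gene and a bar at the median, for the 5 role groups of the set (black), 4 further lists of lipid metabolism (green) and 4 marker lists (purple). The mevalonate and sterol groups have medians of -0.13 and -0.11, the proximal tubule markers 1.12 and the cell division genes -0.28.

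Taking mevalonate and sterol steps as 1 group, 14 of 17 measured genes (82.4%) were lower on array 2, against 46.2% of all measured genes. The 17 genes had a median of -0.13 and a range from -0.26 to 0.15. Genes of cell division were lower on array 2 as well, in 12 of 12 with a median of -0.28, or in 11 of 12 with normexp, lowess or T cell marker centring, where Aurkb (-0.0058) turned positive, and their summed signal was 48.9 on array 1 and 40.7 on array 2. Mki67, which encodes the proliferation marker Ki-67, was at 4.31 and 4.06 (-0.25 ± 0.20), and the mitotic genes Bub1 and Kif11 differed by -0.52 ± 0.21 and -0.48 ± 0.21. The part of cell division in the differences of the sterol genes was not tested. Of the 17 mevalonate and sterol genes, Tm7sf2 was higher by more than its spot error (5.88%, against 17.1% of all genes). The 3 that were lower by more than their spot error were Hsd17b7, Cyp51 and Msmo1 (17.6%, against 11.4% of all genes). They differed by no more than 1.19-fold. Of the 3, Hsd17b7 alone stayed past its error under every alternative run, including those that could not change it. Each has 2 measured probes, which makes its error smaller (0.14 or 0.15). Nsdhl (-0.17 ± 0.21) differed at least as much as Cyp51, and Idi1 (-0.16 ± 0.20) about as much as Msmo1, but each rests on 1 probe.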

How the data were processed

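Cy3-labelled total RNA of kidney Tregs was measured on 2 single-colour Agilent arrays, 1 per antibody lot. Agilent Feature Extraction 10.7.1.1 read the scans, per the file headers and processing notes of the submitters. The deposited processed signal intensity has its background subtracted and a spatial trend removed, with no scaling between arrays. Deposited flags of 0 or 1 mark other spot states. The deposited value table holds a linear ratio (column medians 0.070 and 0.069), and the sources used here do not give how it was made. Set against the scanner signal, it was the signal over a constant of the array near its 75th percentile: the SD of log2 signal minus log2 value was 0.000587 and 0.000474 against the column of the other lot, and 0.156 and 0.181 against that of the same lot. Its scale and centring are thus settled and the assignment of lots is not.

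Signals were log2-transformed and the array's 75th percentile over 56605 non-control probes was subtracted. Outlier spots (75 and 56) were left out, and no spot was saturated. RefSeq accessions named 32994 probes (58.3%, table of GRCm38.p6). The share of probes well above background was 54.0% on each array. In the software's own quality report, array 1 was in range and array 2 was marked for evaluation, whose part in the differences was not tested. Genes are means of probes well above background on both arrays. No test was run. The number of arrays limits the precision. Calculations used Python 3.11.15 and limma 3.58.1 (normexp), and were tested on simulated data. Genes and lists were chosen with earlier results of these data known. All genes of the set are named, and of each other list up to 4 with the largest differences, plus Foxp3, Cd3e, Cd4, Lrp2, Slc34a1, Adgre1 and Mki67. The design named proteins and the Scd promoters for printing, which were not used here.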

Additional observations from a re-analysis of the deposited data

How the results depend on the processing

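Signals were also corrected with normexp on median signals (offset 50), and scaled by the gene median, by 8 spike-in controls, by quantiles, by lowess (span 0.3) or left unscaled. Dim probes were kept, cut at 4 times the floor or judged by another flag, outlier spots were kept, genes were taken from their brightest probe or from the value table, and fold limits of 1.5 and 4 were tried. Centring on Treg and T cell markers, genes above the 75th percentile only and leaving out Fads2 were chosen after seeing the data. Apart from the value table, 427 of 435 values of single members moved by less than the spot error. The 8 others belong to Acaca, Cyp51, Fads1, Fads2 and Lpin1. Part of the 427 was fixed in advance. Leaving out Fads2 or keeping only genes above the 75th percentile changes no value of a kept gene. Gene-median, spike-in or no scaling shifted all genes alike by 0.06 or less, under the members' smallest spot error (0.12). Spike-in scaling moved the median of the members to -0.12, since the spike-ins differed by 0.06. The value table holds the same signals under swapped lots, so its lot M column minus its lot I column is array 1 minus array 2, and array 2 minus array 1 keeps its direction. By those lot columns the median of the members was 0.063, 10 members were lower in lot M, Fads2 was at -1.24, and the medians were 0.13 for mevalonate steps, 0.11 for sterol steps, 0.051 for SREBP regulation, -0.087 for fatty acid supply and synthesis and 0.10 for elongation and desaturation. By the same columns 13 genes were past 2-fold with lot M (array 1) above lot I (array 2), and 184 below it. Of the 32 members 0 were 2-fold apart with normexp, with either filter on dim probes, with the other flag, above the 75th percentile (21 members, 14 lower), without Fads2, or at a limit of 4-fold. Counts at 2-fold over all genes (array 2 higher, then array 1 higher) were 184 and 12 as reported. They became 28 and 0 with normexp, 648 and 399 with no filter, 84 and 1 with the stricter filter, 440 and 229 with the other flag, and 22 and 0 above the 75th percentile. At limits of 1.5-fold and 4-fold they were 708 and 112, and 9 and 2. No paired analysis was possible because each lot has 1 array. Signal over background limits Fads2, Scd1, the second probe of Fads1 and the dimmest probes of Lpin1 and Acaca.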
